A study of Mus musculus with 30 samples.

Results

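The 10 genes described here belong to the pathway of the transcription factor Nrf2 and were chosen by name: Nfe2l2, Keap1, Nqo1, Hmox1, Gclc, Gclm, Slc7a11, Txnrd1, Srxn1 and G6pdx. They were 10 of 55450 annotated genes, 21951 of them protein-coding, in the GENCODE M 21 annotation of mouse build mm10, and all 10 were found there. Around each gene, peaks of acetylated H3 lysine 27 (H3K27ac), which marks active promoters and enhancers, were taken from 4 merged peak lists. The series held 30 samples in 12 groups, all from mouse lung adenocarcinoma cell lines, of which 9 samples in 4 groups were H3K27ac ChIP-seq. CK1750, a line that the study treats as resembling tumor-propagating cells, was grown with the solvent DMSO (3 samples, of which 2 carry the same replicate number) or with 1 µM UNC0638 (2 samples that carry the same replicate number). Tnm2, a line supplied by another laboratory, was grown with DMSO (2 samples) or with 1 µM UNC0638 (2 samples). UNC0638 inhibits G9a and Glp, the enzymes that place dimethylation on lysine 9 of histone H3. The labels give no time in drug for these samples, and the study's methods name 96 h for cell culture experiments in general. Both are established lines grown in culture, and no animal or tumor was sampled here. The comparisons ask which promoter and enhancer marks near these genes differ between the lines, and which differ with the inhibitor.

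Nrf2, the product of Nfe2l2, is a basic leucine zipper factor that the adaptor Keap1 holds and passes to a Cul3 ubiquitin ligase for destruction. When cysteines of Keap1 are modified, Nrf2 escapes, pairs with a small Maf protein and binds antioxidant response elements, through which it drives genes of glutathione synthesis, the thioredoxin system, NADPH supply and the handling of quinones and haem. The pathway is well known in lung adenocarcinoma because KEAP1 and NFE2L2 are recurrently mutated there.

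Each group had 1 merged list, so there was no spread between replicates and nothing could be tested between groups. The lists held 27367 peaks for CK1750 with DMSO, 24601 for CK1750 with UNC0638, 30641 for Tnm2 with DMSO and 18794 for Tnm2 with UNC0638, and sets of 4 values below keep this order. Read totals were not part of the lists, so the depth was unknown. The score of a peak is the peak caller's -10 log10 P and was compared between lists only as a percentile, the percent of peaks in the same list with a lower score. Promoter peaks lay within 2.5 kb of a start site of the gene. Distal peaks lay within 50 kb of the gene and over 2.5 kb from every annotated start site, and peaks at start sites of other genes were kept apart. Of 8 epithelial marker genes, 6 had a promoter peak in all 4 lists (Nkx2-1, Sftpc, Cdh1, Krt8, Krt18 and Foxa2), and Epcam and Cldn4 had none. Of 6 markers of leukocytes, endothelium and mesenchyme, only Pecam1 had one, in both Tnm2 lists.

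The first sequences shown carry the antioxidant response element core TGACNNNGC, the letters that Nrf2 with small Maf is known to bind, which was searched on both strands of the 62 joined regions near the 10 genes. It matched 54 times. In 7 of these the core read TGACTCAGC, which also holds the AP-1 letters TGANTCA, and these 7 are shown because 6 of them lay in distal regions. Upstream of Hmox1, 3 stood within 86 bases about 9.6 kb before the start (chr8:75083939-75084024, minus strand), and another lay about 3.9 kb before it next to a further core (chr8:75089688-75089768, minus strand). The rest lay 3.79 kb upstream of Gclc (chr9:77750735-77750763, minus strand), 36.5 kb upstream of Gclm (chr3:122209030-122209058, minus strand) and in an intron of G6pdx, 4.27 kb past a start (chrX:74424564-74424592, minus strand). All are read from build GRCm38 on the strand named, 5′ to 3′, with the core in capitals.
Hmox1, 9.6 kb upstream: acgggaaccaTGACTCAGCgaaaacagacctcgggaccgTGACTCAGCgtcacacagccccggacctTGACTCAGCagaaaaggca
Hmox1, 3.9 kb upstream: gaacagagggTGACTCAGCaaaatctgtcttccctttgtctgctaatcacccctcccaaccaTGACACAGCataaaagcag
Gclc, upstream: cgcctcaccgTGACTCAGCactctgcgcg
Gclm, upstream: ggccttgtgtTGACTCAGCcgcattatct
G6pdx, intron: ggggcaactgTGACTCAGCagaccagtcc

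For the 5 genes whose promoter peaks ranked high in every list, the cores nearest to a start are shown, with a second one for Gclm, and the other promoter cores are not. They lay 258 bases before a start of Nfe2l2 (chr2:75704885-75704913, minus strand), 31 bases before a start of Keap1 (chr9:21238830-21238858, plus strand), 130 and 12 bases before a start of Gclm (chr3:122245413-122245441 and chr3:122245642-122245670, minus strand), 61 bases before a start of Txnrd1 (chr10:82859104-82859132, minus strand) and 32 bases past a start of Srxn1 (chr2:152105542-152105570, minus strand). The Nfe2l2 match was inside the peaks of 3 lists and outside that of Tnm2 with UNC0638, and the others were inside the peaks of all 4. The related spelling TGAGNNNGC was searched on both strands after the first results had been seen, because the Nqo1 peak at the start held no TGACNNNGC. It matched 19 times in the joined promoter regions, 19 times in the distal ones and 12 times in those at start sites of other genes. Most are not shown, among them matches 3 bases before a start of Hmox1 and 1 base past a start of Keap1. It is shown for Nqo1, 431 bases before the start (chr8:107403623-107403651, minus strand), and for Srxn1, 33 bases (chr2:152105469-152105497, plus strand) and 146 bases (chr2:152105356-152105384, minus strand) before a start. These 3 were inside the peaks of all 4 lists, and the one nearer to the Srxn1 start holds TGANTCA as well.
Nfe2l2: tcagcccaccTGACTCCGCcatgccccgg
Keap1: cgggtcacggTGACTAAGCacagcgcgcc
Gclm, farther: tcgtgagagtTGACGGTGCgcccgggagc
Gclm, nearer: tggaagacaaTGACTAAGCagaaacctca
Txnrd1: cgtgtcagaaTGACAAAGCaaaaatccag
Srxn1, past the start: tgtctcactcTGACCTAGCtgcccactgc
Nqo1: agagtcacagTGAGTCGGCaaaatttgag
Srxn1, nearer: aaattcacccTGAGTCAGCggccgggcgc
Srxn1, farther: ccagagaggaTGAGTCGGCtctcagtaga

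Over whole peaks, TGACNNNGC matched more often per kb near the 10 genes than over all peaks. In the central 300 bases of distal peaks the share was higher only in the CK1750 lists, on few peaks. Distal peaks near them held 0.791, 0.977, 0.788 and 0.874 cores per kb in the 4 lists, and all distal peaks 0.466, 0.466, 0.465 and 0.471. In the central 300 bases, 26.1%, 19.05%, 13.0% and 13.3% of the distal peaks near the 10 genes held a core, against 13.2%, 13.6%, 13.5% and 14.1% of all. The counts were 6 of 23, 4 of 21, 3 of 23 and 2 of 15, too few to set the lines apart. Promoter peaks held 0.762, 0.76, 0.772 and 0.828 per kb, and all peaks near a start site 0.454, 0.449, 0.449 and 0.459. In the UNC0638 lists alone, the promoter peaks include a wide G6pdx peak at Ikbkg start sites, described below. It gave 3 of the 17 promoter cores in CK1750 and 3 of the 14 in Tnm2. The lists share most of this sequence, so the 4 values are not independent, and several of the genes are textbook Nrf2 targets that are known for such elements. Among the RefSeq promoter windows (build GRCm38.p6, 250 bases before to 50 after a start), 8 of the 10 genes matched an entry, with 10 windows in all. A core was in 5 of these 10, against 12.4% of 32851 windows of all genes. For TGAGNNNGC the density was 0.563 per kb in the joined distal regions and 0.727 in the joined promoter regions, beside 0.665 to 0.681 over all peaks, and 2 of the 10 windows held it against 17.6% of all. A match is a string of letters and shows neither binding nor a cause.

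A promoter peak was present for 10, 10, 10 and 9 of the 10 genes, with Gclc missing from Tnm2 with UNC0638. The background was 50%, 49.1%, 49.4% and 41.3% of protein-coding genes. The median percentile of the highest promoter peak was 84.0, 89.8, 87.9 and 91.3 for these genes and 77.2, 74.1, 77.3 and 69.1 for all genes with a promoter peak. Nfe2l2, Srxn1, Txnrd1, Keap1 and Gclm stood above the all-gene median in every list. With a promoter window of 1 kb, which leaves out a G6pdx peak at Ikbkg start sites, the medians were 84.0, 78.1, 87.9 and 89.8 for these genes and 77.3, 74.0, 77.4 and 69.2 for all. Nqo1, Hmox1, Slc7a11 and G6pdx were above the 2.5 kb median in some lists and below it in others, and Gclc was below it in each list where it had a promoter peak.

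**Figure D1:**
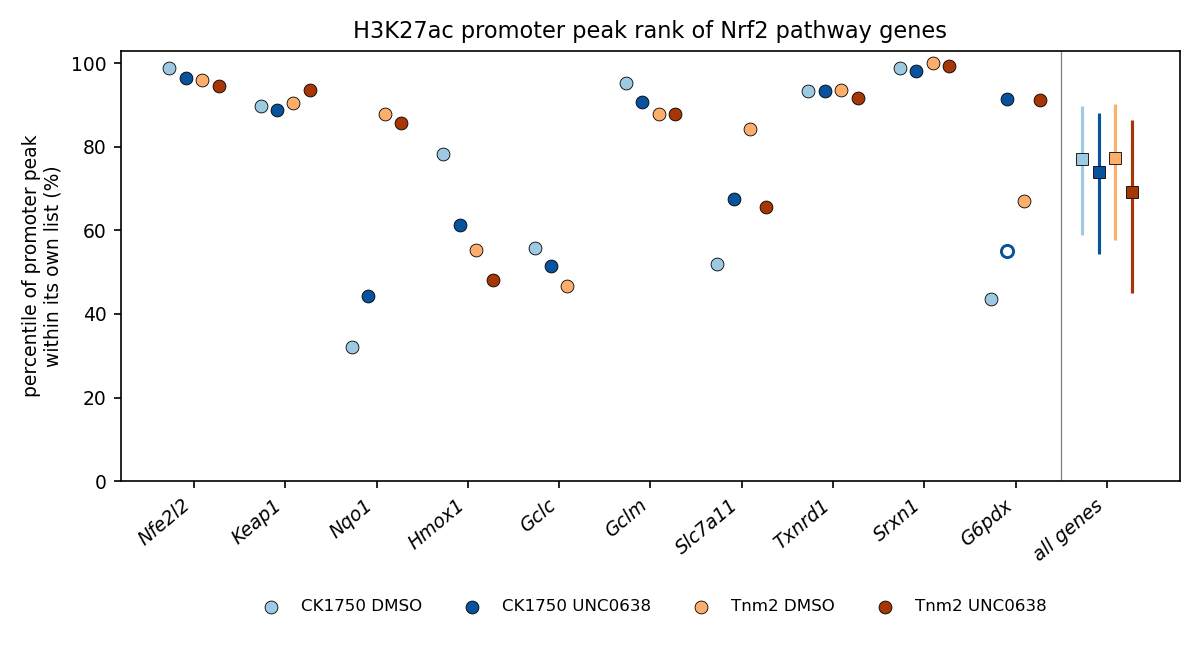
Percentile of each gene's highest-scoring promoter peak within its own list (y axis, percent) for the 10 genes (x axis), with 1 filled point per merged list. Open circles at G6pdx give its peak within 1 kb of a start, and squares with bars at the right give the median and quartiles of all protein-coding genes with a promoter peak. Nfe2l2, Srxn1 and Txnrd1 stay above 91 in every list, while Nqo1 stands at 32.0 in CK1750 with DMSO and at 87.9 in Tnm2 with DMSO.

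Of the regulators, Nfe2l2 itself (chr2:75675513-75704641, minus strand) had a promoter peak across its start in every list. Its score was 3100 in CK1750 with DMSO, a value at which 558 peaks of that list were tied, and 2228, 1460 and 676.78 in the others. The percentiles were 98.8, 96.4, 96.04 and 94.6, so the peak was among the highest of each list. It was 2803, 3473, 2457 and 2083 bp wide. Keap1 (chr9:21229730-21239361, minus strand), which encodes the sensor that holds Nrf2, had a promoter peak with scores of 1190, 1095, 833.53 and 616.76. Its percentiles were 89.8, 88.8, 90.4 and 93.7, with the highest in Tnm2 with UNC0638. Both regulators thus kept a high-ranking promoter peak in both lines with and without the inhibitor.

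Inside the Nfe2l2 gene the marks differed more between lines than at the start. About 7.6 kb past the 5′ end, each Tnm2 list had 1 intronic peak, with scores of 394.12 and 157.94 at percentiles of 77.4 and 61.4. In CK1750 the peak of each list that overlapped it scored 58.7 and 99.82, at percentiles of 12.7 and 31.9. A second CK1750 peak, 8.64 and 8.74 kb past the 5′ end, scored 56.95 and 101.51 and overlapped no peak of the Tnm2 list with the same treatment. It adjoined the Tnm2 peak, ending at chr2:75696229 with DMSO, where that of Tnm2 began at chr2:75696247. With UNC0638 it ended at chr2:75696191 and that of Tnm2 began at chr2:75696198. The overlapping peaks thus ranked low in CK1750 and above most peaks in Tnm2. A further intronic region, 5.8 kb past the 5′ end, scored 69.06, 147.75 and 124.74 and was not listed in Tnm2 with UNC0638, and one at 3.25 kb scored 69.91 in CK1750 with DMSO and 189.75 and 70.91 in Tnm2. Beyond the far end of the gene, a peak 61.1 kb from the 5′ end was listed in all 4 groups with scores of 207.3, 69.79, 154.1 and 67.18. Its percentiles were 58.0, 16.8, 53.1 and 20.7, higher with DMSO in both lines.

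Among the detoxifying enzymes, Nqo1 (chr8:107388225-107403206, minus strand), a quinone reductase and a common readout of Nrf2 activity, had the widest promoter difference between lines. Its promoter peak scored 87.18 and 147.79 in CK1750 and 702.02 and 376.62 in Tnm2. As percentiles these were 32.0, 44.4, 87.9 and 85.8, so both Tnm2 lists were far above both CK1750 lists. The peak was 902 and 948 bp wide in CK1750, where it stopped upstream of the start, and 1815 and 1798 bp wide in Tnm2, where it ran across it. Tnm2 also had a distal peak about 3.4 kb upstream, with scores of 180.99 with DMSO and 58.19 with UNC0638, that was in neither CK1750 list. The TGAGTCGGC printed above lay inside the promoter peak in all 4 lists.

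Hmox1 (chr8:75093621-75100589, plus strand), the haem oxygenase that opens the haem ring, ranked higher at its start in CK1750 than in Tnm2. Its promoter peak scored 547.89, 273.84, 164.78 and 114.56, at percentiles of 78.3, 61.3, 55.3 and 48.1. When every list was cut to its 18794 highest-scoring peaks, the length of the shortest, the percentiles were 68.4, 49.3, 27.04 and 48.1, so Hmox1 was lower with UNC0638 in CK1750 either way, and its direction in Tnm2 turned. The upstream peak about 3.7 kb before the start, which holds the printed TGACTCAGC and TGACACAGC, scored 360.44, 444.32, 548.34 and 194.05, at percentiles of 70.5, 72.4, 83.7 and 68.5. It was thus below the promoter peak in CK1750 with DMSO and above it in the other 3 lists. A farther upstream peak, about 9.9 kb before the start, scored 151.99 and 127.64 in CK1750 and 54.68 in Tnm2 with UNC0638, and was not listed in Tnm2 with DMSO. The printed run of 3 TGACTCAGC lay inside both CK1750 peaks, and the Tnm2 peak ended before it.

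Gclc and Gclm encode the catalytic and the modifier subunit of glutamate-cysteine ligase, the rate-limiting enzyme of glutathione synthesis, and their marks were placed differently. Gclm (chr3:122245557-122270732, plus strand) had its main peak at the start, with scores of 2074, 1262, 704.36 and 417.57 and percentiles of 95.2, 90.8, 87.9 and 88.0. It was highest in CK1750 with DMSO and above 87 in each list. Gclc (chr9:77754535-77794485, plus strand) had a low promoter peak with scores of 190.06, 189.55 and 128.33, at percentiles of 55.7, 51.4 and 46.7, and none in Tnm2 with UNC0638. Over all genes with a promoter peak in the DMSO list, 4.85% had none with UNC0638 in CK1750 (0 of these 10) and 17.7% in Tnm2 (1 of these 10).

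The main Gclc peak lay about 3.85 kb upstream of the start, between genes, and scored 1629, 1265, 1521 and 767.45. Its percentiles of 93.3, 90.9, 96.3 and 95.7 were above those of the gene's own promoter peak in every list that had one. It was the highest-scoring distal peak near any of the 10 genes in each list, and it holds the Gclc TGACTCAGC printed above. Tnm2 alone had a peak 50.2 kb upstream of Gclc, in an intron of Gm47790, with scores of 242.71 with DMSO and 95.27 with UNC0638.

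Slc7a11 (chr3:49892526-50443614, minus strand), the cystine carrier of system xc-, had a promoter peak whose rank differed with UNC0638 in opposite directions in the lines. In CK1750 it scored 164.3 with DMSO and 355.36 with UNC0638, and in Tnm2 570.38 and 178.14. Its percentiles were 51.9, 67.4, 84.4 and 65.7, so the lines were far apart with DMSO and close with UNC0638. An upstream peak about 14.4 kb before the start was missing from CK1750 with DMSO and scored 95.6, 127.73 and 152.49 in the other lists. An intronic peak about 5.5 kb into the gene had the same pattern of presence, with scores of 97.54, 138.75 and 73.73. The 5 distal peaks of CK1750 with DMSO lay elsewhere in the window and scored 52.8 to 94.99. The annotated span of Slc7a11 is 551 kb, the longest of the 10, which widens its window.

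**Figure D2:**
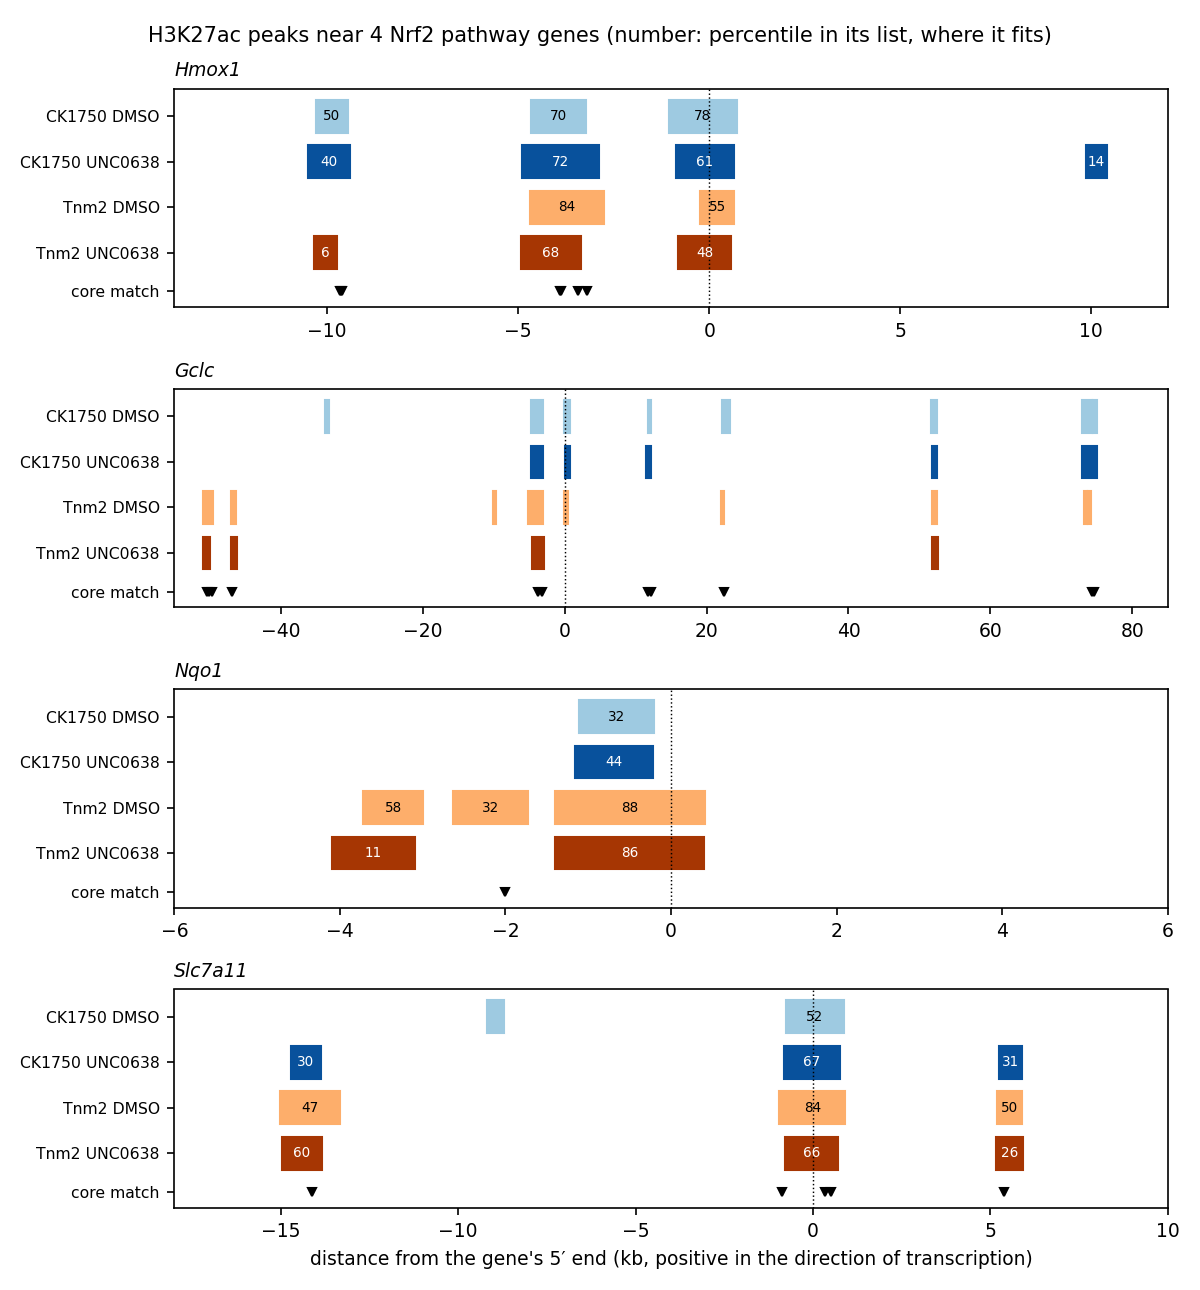
H3K27ac peaks near Hmox1, Gclc, Nqo1 and Slc7a11 in the 4 merged lists, by distance from the 5′ end of the gene (x axis, kb, positive in the direction of transcription, with a different range in each panel). Boxes span the peaks and carry their percentile where it fits, and triangles mark matches of TGACNNNGC in any list's peaks. Gclc has its highest peak upstream of the start in every list, and Nqo1 has its widest and highest promoter peaks in Tnm2.

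In the thioredoxin system, Srxn1 (chr2:152105516-152111376, plus strand), which reduces overoxidised peroxiredoxins, had the highest-ranking promoter of the 10 genes in 3 lists and shared the tied score of 3100 with Nfe2l2 in CK1750 with DMSO. Its scores were 3100, 2950, 3136 and 1610, at percentiles of 98.8, 98.1, 99.95 and 99.3. It had no distal peak in any list. Txnrd1 (chr10:82833951-82897712, plus strand), the cytosolic thioredoxin reductase, had no peak at its 5′-most start. Its promoter peaks lay about 25.02 and 26.7 kb further in, at internal start sites, in all 4 lists. The first scored 1640, 1575, 1088 and 526.34, at percentiles of 93.3, 93.5, 93.5 and 91.6, and the second scored 1059, 872.48, 713.94 and 193.87. The first one, which holds the Txnrd1 core printed above, also lies over Gm38560, so it cannot be assigned to one gene.

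G6pdx (chrX:74409483-74429194, minus strand) encodes glucose-6-phosphate dehydrogenase, the entry enzyme of the pentose phosphate pathway and a source of NADPH. Start sites of Ikbkg, read from the other strand, lie beside and within it, so the peaks there cannot be assigned to one gene. The highest peak within 1 kb of a G6pdx start scored 122.26 and 215.03 in CK1750 and 248.75 in Tnm2 with DMSO, at percentiles of 43.6, 55.0 and 67.0, and none was listed in Tnm2 with UNC0638. A wide intronic peak about 4.1 kb past the 5′ end, at Ikbkg start sites, scored 1103, 1334, 1129 and 512.95, at percentiles of 88.9, 91.5, 93.8 and 91.3. Its edge was just inside 2.5 kb of a G6pdx start in both UNC0638 lists and just outside in both DMSO lists. The higher G6pdx percentile with UNC0638 in the 2.5 kb window thus compares different peaks, and in CK1750 the peak within 1 kb also ranked higher with UNC0638. With a window of 1 kb, 10, 10, 10 and 8 of the 10 genes had a promoter peak, against 48.6%, 47.8%, 47.7% and 39.8% of protein-coding genes.

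With UNC0638 in CK1750, 3 of the 10 genes ranked higher by 10 percentile points or more, against 6.07% of all genes with a promoter peak in both lists. They were Slc7a11 by 15.6, Nqo1 by 12.4 and G6pdx by 47.9, or by 11.3 with the 1 kb window. All 3 started below the all-gene median with DMSO. Of all genes starting at or below it, 621 of 4958 were higher by 10 points or more. Hmox1, with a difference of -17.0 points, was the 1 gene lower by as much, against 19.4% of all genes, or 19.5% with the 1 kb window. In Tnm2, 1 of 9 genes was lower by 10 points or more, Slc7a11 with a difference of -18.7, against 48.5% of all genes. The Tnm2 lists differ most in length, and these Tnm2 values depend on it. The 1 gene higher by as much there, against 1.66% of all, was G6pdx through the window's edge. With the 1 kb window 0 of 8 were higher, against 1.57%, and 1 of 8 lower, against 48.4%.

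The same differences were taken with every list cut to 18794 peaks, a comparison added after the first results were seen. In CK1750 the same genes passed 10 points. Slc7a11 was higher by 27.4, Nqo1 by 26.3 and G6pdx by 71.0, against 11.7% of all genes. The G6pdx value came through the window's edge and compares different peaks. Hmox1 was lower, at -19.1, against 16.2% of all genes. In Tnm2, 0 of 9 were lower by 10 points, against 19.7% of all, and Slc7a11 differed by -8.81. Hmox1, at 21.1, and G6pdx, at 45.1 through the window's edge, were higher, against 13.6% of all. Of the 9 genes 7, with G6pdx among them, ranked higher with UNC0638 in Tnm2 and 2 lower, where at full length the median had been below 0. Over all genes 4043 of 8583 ranked higher and 4536 lower.

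The median difference with UNC0638 was -0.82 points over these genes and -2.28 over all genes in CK1750, and -1.44 and -9.52 in Tnm2. With lists of equal length it was 0.60 and -0.81 in CK1750 and 5.58 and -0.34 in Tnm2, so the sign over these genes turned in both lines. At full length the starting rank moved with these values. Among genes above the all-gene median with DMSO, 8.93% of all and 1 of 6 of these genes were lower by 10 points or more in CK1750, and 34.6% of all and 1 of 7 in Tnm2. Among genes at or below it, the values were 31.0% of all and 0 of 4 in CK1750, and 69.7% of all and 0 of 2 in Tnm2. Genes higher by 10 points or more mostly started at or below it. In CK1750 these were 621 of 4958 of all and 3 of 4 of these genes, beside 13 of 5487 and 0 of 6 above it. In Tnm2 they were 147 of 3529 of all and 1 of 2 of these genes, beside 1 of 5397 and 0 of 7.

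Between the lines with DMSO, 3 of the 10 genes ranked higher in Tnm2 by 10 points or more, against 12.9% of all genes. These were Nqo1 by 55.9, Slc7a11 by 32.5 and G6pdx by 23.4. Hmox1, with a difference of -23.1 points, was the 1 gene lower in Tnm2 by as much, against 17.0% of all genes. With UNC0638, 1 of 9 was higher in Tnm2, Nqo1 by 41.4, against 5.35%, and 1 of 9 lower, Hmox1 at -13.1, against 41.0%. Slc7a11 then differed by -1.74 points. With equal list lengths Nqo1 was higher in Tnm2 by 79.2 with DMSO and 58.6 with UNC0638, and Hmox1 differed by -41.4 and -1.18. Slc7a11 was then higher in Tnm2 by 44.6 and 8.32. With DMSO 3 of 10 genes were then higher in Tnm2 by 10 points or more, against 12.3% of all. With UNC0638 1 of 9 was higher, against 14.3%, and 0 of 9 lower, against 28.1%. Beside Hmox1, Gclc and Gclm were then also lower in Tnm2 with DMSO, at -22.4 and -12.7, against 26.4% of all genes. The Nqo1 difference was thus over 10 points under both treatments at either length, and that of Hmox1 with UNC0638 only at full length.

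Distal peaks near the 10 genes numbered 23, 21, 23 and 15 in the list order. They lay near 6, 6, 6 and 7 of the 10 genes, against 38%, 34.7%, 40.9% and 28.7% of protein-coding genes with at least 1. Their median percentile was 35.2, 31.9, 46.6 and 26.2, beside 35.2, 34.9, 38.2 and 37.0 for all distal peaks. Keap1, Srxn1 and G6pdx had none in any list, and Nfe2l2 and Gclc had 7 each in Tnm2 with DMSO. Joined over the lists they formed 32 regions, of which 6 were in all 4 lists, 9 in 3, 7 in 2 and 10 in 1. The 6 in every list were those of Gclc at 3.85 kb upstream and 52.1 kb past its 5′ end, Hmox1 at 3.7 kb upstream, Gclm at 45.7 kb upstream, and Nfe2l2 at 7.6 and 61.1 kb past its 5′ end.

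The core TGACNNNGC was in 4 of the 6 distal regions of 4 lists and 7 of the 9 of 3 lists, and in 2 of the 7 of 2 lists and 1 of the 10 of a single list. Regions of a single list were also narrower, with a median width of 534 bp beside 1103, 973 and 1988 bp in 2, 3 and 4 lists. Per kb the cores were 0.191, 0.577, 0.952 and 0.81 in regions of 1, 2, 3 and 4 lists. A core in a joined region need not lie inside the peak of each list. In the 3-list regions of Hmox1 at 9.9 kb upstream, Nfe2l2 at 5.8 kb and Gclc at 73.9 kb, the cores lay inside the peaks of 2 lists. In the 4-list region of Gclm they lay inside those of 3 and of 2. These counts have no background over all distal regions.

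**Figure D3:**
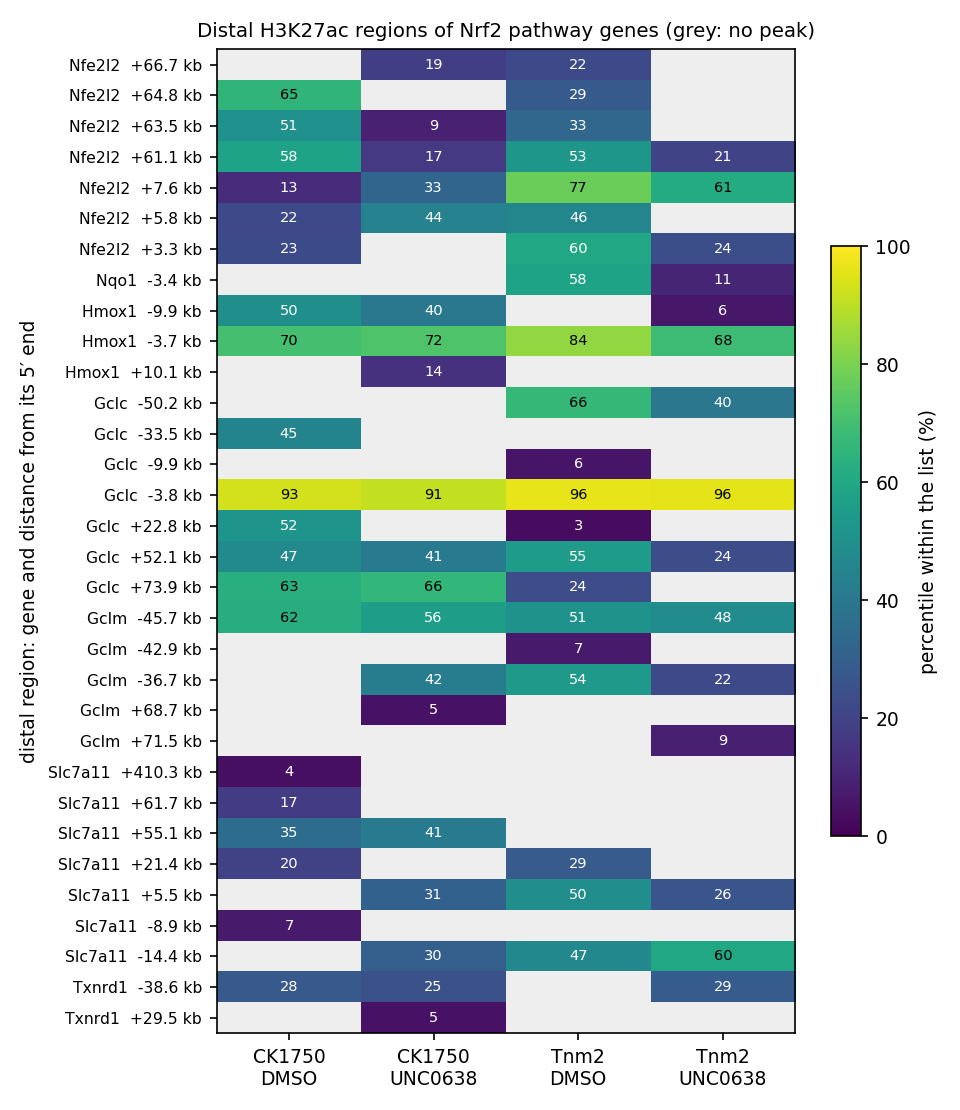
The 32 joined distal regions of the 10 genes (rows, with the distance from the 5′ end of the gene in kb, positive in the direction of transcription) in the 4 merged lists (columns). Color and number give the percentile of the region's highest peak in that list, and grey means no listed peak. The Gclc region 3.85 kb upstream is above 90 in all 4 lists, and 10 regions are in 1 list only.

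With UNC0638 in CK1750, 8 of the 23 distal DMSO peaks had no overlapping peak, or 34.8% (Wilson 95% interval 18.8 to 55.1%, counting error only), against 32.1% of all distal peaks near protein-coding genes. In Tnm2, 10 of 23 were lost, or 43.5% (25.6 to 63.2%), against 54.2%. Both shares lie near their background within the interval. By score, 9 of 10 Tnm2 peaks under 100 were lost, against 80.6% of all, and 1 of 13 of 100 or more, or 7.69% (1.37 to 33.3%), against 28.8%. In CK1750 the losses were 5 of 12 peaks under 100, against 53.3%, and 3 of 11 of 100 or more, or 27.3% (9.75 to 56.6%), against 8.75%. Here the UNC0638 list was kept at all scores. With both lists of a line kept to scores of at least 100, 8 of 13 Tnm2 peaks were lost, or 61.5% (35.5 to 82.3%), against 56.0%. In CK1750 5 of 11 were then lost, or 45.5% (21.3 to 72.0%), against 20.7%. The lower Tnm2 share near the 10 genes thus depended on how the lists were cut. Peaks near the same gene are not independent, and these intervals are then too narrow.

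These 3 higher CK1750 losses were a peak 64.8 kb past the 5′ end of Nfe2l2, between genes, with a score of 287.02, one in an intron of Gclc at 22.8 kb with 163.26, and one 33.5 kb upstream of Gclc with 128.69. The highest losses in Tnm2 were an intronic Nfe2l2 peak at 5.67 kb with 124.74, one 63.6 kb past the Nfe2l2 5′ end with 90.03, and an intronic Slc7a11 peak at 21.4 kb with 82.46. The window of Nfe2l2 thus held the highest lost peak in each line when an overlap of 1 bp was asked for. Both had an UNC0638 peak of the same line within 1 kb, and neither was lost when such peaks counted as shared. The highest lost CK1750 peak lay nearer to a start of Gm13655, at 6.48 kb, with a peak at start sites of other genes between it and Nfe2l2. It cannot be assigned to one gene. The region of the highest CK1750 loss was also listed with DMSO and not with UNC0638 in Tnm2, where it scored 81.99. Distal peaks in the window of Nfe2l2 numbered 7 with either treatment in CK1750, and 7 with DMSO and 3 with UNC0638 in Tnm2.

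Distal peaks found with UNC0638 and not with DMSO were 7 of 21 in CK1750, or 33.3% (17.2 to 54.6%), against 31.1% of all, and 3 of 15 in Tnm2, or 20% (7.05 to 45.2%), against 14.7%. The highest in CK1750 were that of Gclm 36.65 kb upstream with a score of 137.76, which holds the Gclm TGACTCAGC printed above, and those of Slc7a11 at 5.57 kb inside and 14.3 kb upstream with 97.54 and 95.6. All 3 overlapped a peak of Tnm2 with UNC0638. In Tnm2 the 3 scored 77.82 (Txnrd1, 38.6 kb upstream), 56.65 (Gclm, 71.5 kb past the 5′ end) and 54.68 (Hmox1, 10.05 kb upstream), all under 100.

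Between the lines with DMSO, 9 of the 23 distal peaks of CK1750 had no Tnm2 peak, or 39.1% (22.2 to 59.2%), against 37.0% of all, and 8 of the 23 of Tnm2 had no CK1750 peak, or 34.8% (18.8 to 55.1%), against 49.7%. With UNC0638 the counts were 9 of 21, against 50.3%, and 4 of 15, against 29.1%. For both DMSO lists the interval covers the background.

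**Figure D4:**
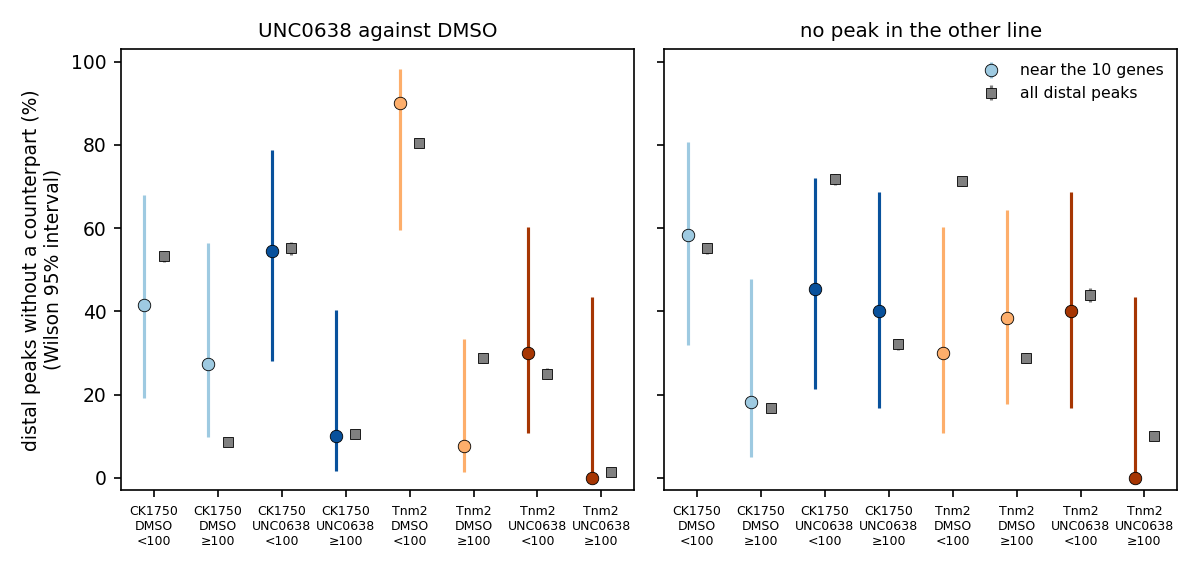
Percent of distal peaks with no overlapping peak (y axis) of the other treatment of the same line (left) or of the other line with the same treatment (right), for peaks of each list (x axis) with scores under 100 and of 100 or more. Circles are peaks near the 10 genes and squares all distal peaks near protein-coding genes, with Wilson 95% intervals. For CK1750 DMSO peaks of 100 or more, 27.3% near the 10 genes and 8.75% of all had none with UNC0638, and for those of Tnm2 7.69% and 28.8%. The other list was kept at all scores. With both Tnm2 lists kept to scores of at least 100, the shares were 61.5% and 56.0%.

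Of 55 other genes of the pathway, 45 had a promoter peak in all 4 lists, 7 in some and 3 in none, with 50, 48, 51 and 47 genes per list. The 3 without were Gpx2, Ggt1 and Cbr3. The median percentile over the genes with a peak was 82.1, 80.5, 86.2 and 81.9. Regulators and partners of Nrf2 had the highest medians of the groups, at 94.1, 94.6, 92.5 and 89.4, and of the genes of its small Maf partners, named after their values were seen, Mafg and Maff stood between 98.8 and 99.4 in every list and Mafk at 94.1, 96.9, 92.5 and 88.3. With UNC0638, 2 of 48 genes were higher and 6 lower by 10 points or more in CK1750, and 3 of 47 higher and 13 lower in Tnm2, beside the all-gene shares given above. With equal list lengths the counts were 5 of 44 higher and 4 lower in CK1750, and 5 of 45 higher and 7 lower in Tnm2.

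The 7 genes with a promoter peak in some lists were below the all-gene median in each list where they had one. Dpp3, which can compete with Nrf2 for Keap1, Chac1, which degrades glutathione, and Blvra, a biliverdin reductase, lacked one in Tnm2 with UNC0638 alone. Slc40a1, the iron exporter ferroportin, lacked one in CK1750 with UNC0638 alone. Blvrb, the other biliverdin reductase, had one in both Tnm2 lists, Taldo1, the transaldolase, in CK1750 with DMSO, and Abcc2, an efflux pump for conjugates, in Tnm2 with DMSO.

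Abcc3, a related efflux pump, was among the 3 largest upward differences with UNC0638 in both lines, with percentiles of 76.3 and 92.9 in CK1750 and 74.0 and 93.2 in Tnm2, DMSO first. The others were Gsta4 (6.49 and 20.04) and Txnip (68.3 and 75.3) in CK1750, and Akr1b8 (71.4 and 92.6) and Palb2 (25.4 and 38.7) in Tnm2. Gstp1, a glutathione transferase, had the largest downward difference in both, with 56.1 and 6.41 in CK1750 and 63.0 and 2.63 in Tnm2. Closely similar copies lie next to Gstp1, so the placing of reads there is uncertain. Btrc (40.4 and 19.9) and Palb2 (76.8 and 58.8) followed in CK1750, and Ugdh (78.8 and 28.1) and Slc40a1 (68.7 and 20.9) in Tnm2. Palb2, whose protein binds Keap1, was thus lower with UNC0638 in CK1750 and higher in Tnm2 at full length. When lists were cut to equal length, Palb2 had no promoter peak in Tnm2 with DMSO, Gstp1 and Btrc had none in CK1750 with UNC0638, Gsta4 had none in CK1750, and the other differences named kept their direction.

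**Figure D5:**
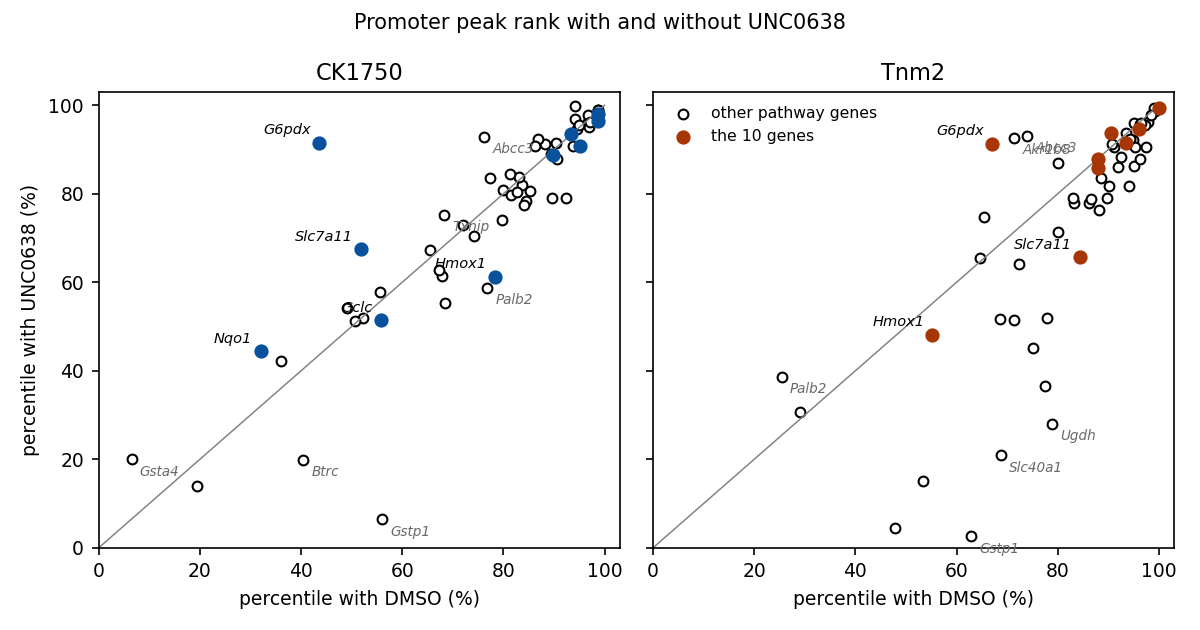
Percentile of the highest promoter peak with DMSO (x axis) and with UNC0638 (y axis), each within its own list, for the 10 genes (filled) and the other pathway genes with a promoter peak in both lists (open), in CK1750 (left) and Tnm2 (right). The line marks equal rank. In Tnm2, 13 of 47 other pathway genes and 1 of 9 of the genes described here lie 10 points or more below it, against 48.5% of all genes. The G6pdx points compare different peaks because of the window's edge.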

How the data were processed

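H3K27ac ChIP-seq samples were grouped by line and treatment as labelled. Per the labels and the study's methods, the authors mapped reads to mm10 with bowtie2 and called peaks with MACS 1.4.2 at a P cutoff of 1e-05. The deposited score is -10 log10 of that P value (lowest 50) and grows with depth, so ranks within a list were compared. Tied scores took their mean rank. Each list was taken as pooled replicates from the labels. Which libraries entered each list, and the control used, are not given in the sources used here. H3K9me2 and input samples were not analysed here.

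Peaks overlapped when they shared at least 1 bp. Shares carry Wilson 95% intervals. Genes came from GENCODE M 21 and sequences from GRCm38.p6 and RefSeq. The genes and lists were chosen with earlier results of these data known. Text names the 10 genes, other pathway genes with a promoter peak in some or no lists, the 3 largest rank differences in each direction per line, and the 3 highest-scoring lost and gained distal peaks. Mafg, Maff and Mafk were named after their values were seen. The steps were tested on simulated data. Alternatives were a minimum score, equal list lengths, merged neighbouring peaks, other windows, start sites of protein-coding genes only, and a stricter and a looser overlap. Python 3.11.15, numpy 2.4.6, pandas 2.3.3, scipy 1.17.1 and matplotlib 3.10.9 were used.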

Additional observations from a re-analysis of the deposited data

Results flagged for a closer look

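At full list length the promoter rank of 5 genes differed with UNC0638 in opposite directions in the lines. Given as UNC0638 minus DMSO in percentile points, for CK1750 and then Tnm2, the values were 15.56 and -18.66 for Slc7a11, 12.41 and -2.07 for Nqo1, -0.93 and 3.24 for Keap1, -4.41 and 0.02 for Gclm, and 0.14 and -1.95 for Txnrd1. The number of distal peaks of Gclm differed by 1 and -1. With 1 merged list per group, none of these differences was tested. The Tnm2 lists also differ more in length (30641 and 18794 peaks) than those of CK1750 (27367 and 24601), and list length moves these values. With every list cut to 18794 peaks, 3 of the 5 went the same way in both lines, namely Nqo1 (26.3 and 5.58), Keap1 (0.29 and 9.26) and Txnrd1 (1.17 and 2.12). Slc7a11 (27.4 and -8.81) and Gclm (-5.07 and 7.62) still differed in opposite directions, and Hmox1, which at full length was lower in both lines, then did so too (-19.1 and 21.1).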

How the results depend on the processing

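Of 135 values recomputed under alternatives for 39 results, 102 moved by less than their yardstick (1.5 times for a count, the Wilson interval for a share, the SD over genes for a median percentile, 10 points for a rank difference), 25 by more, and 8 changed sign. Numbers of distal peaks, in the list order, were 11, 10, 13 and 5 with scores of at least 100, 14, 12, 12 and 9 within 20 kb, and 38, 37, 41 and 23 within 100 kb. When every list was cut to its top 18794 peaks, the DMSO lists held 12 in CK1750 and 13 in Tnm2. The share of distal Tnm2 DMSO peaks with no CK1750 peak was 61.5% both at scores of at least 100 (45.8% of all distal peaks) and at equal list lengths (41.3% of all), and with a reciprocal overlap of 50% the share without a peak in the other line was 60.9% for each DMSO list (55.6% of all in CK1750 and 63.3% in Tnm2). At equal list lengths 7.69% of Tnm2 DMSO peaks were lost (27.7% of all). At scores of at least 100 in both Tnm2 lists 61.5% were lost (56.0% of all). The share gained in Tnm2 was then 0.0% (0 of 5, interval up to 43.4%, against 6.06% of all). The 8 sign changes were rank differences with UNC0638 at equal list lengths, a comparison added after the first results. In CK1750 they were the median over the genes (0.60), Keap1 (0.29) and Gclc (0.90), and in Tnm2 the median (5.58), Nfe2l2 (1.06), Nqo1 (5.58), Hmox1 (21.1) and Txnrd1 (2.12), all below 0 at full length. The numbers of genes with a promoter peak and their median percentiles kept within the yardstick under every alternative run, and the largest shift of a median was that of CK1750 with UNC0638 to 78.1 with the 1 kb window. Leaving out a replicate was not possible with merged lists. No paired analysis was possible because each group has 1 merged list and no result comes from a test. Depth was unknown.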
